A study of Arabidopsis thaliana with 12 samples.

Results

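The genes described here are the 80 whose array signal was lower after t-zeatin, a cytokinin, in both genotypes of Arabidopsis thaliana that were compared. They were chosen on measured values, from group means of log2 signal over 3 arrays. A probe set had to be paired with 1 gene, reach a mean log2 signal of at least 5.3 in its highest group (a signal of 39.4), and change by -0.8 or less on the log2 scale in Col-0 and in ARR22-ox. Of 22810 probe sets, 13513 were paired with 1 gene, 6887 of these reached the level floor, and 80 met both changes, or 1.16% of those above the floor. The same fall was met in Col-0 by 508 genes (7.38%) and in ARR22-ox by 581 (8.44%), so the 80 made up 15.7% of the Col-0 list and 13.8% of the ARR22-ox list.

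The 12 arrays carried RNA of complete plants, 21 days old and in the vegetative stage, in 4 groups of 3. These were ARR22-ox plants given 20 µM t-zeatin for 3 h, ARR22-ox plants with no treatment, Col-0 plants given the same t-zeatin, and Col-0 plants with no treatment. ARR22-ox denotes overexpression of ARR22, and the promoter and the number of lines are not given in the labels. The labels record no mock treatment. Whether arrays of 1 group come from separate plants is not stated, so the p-values below reflect array-to-array spread, which may be technical.

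Cytokinins are plant hormones sensed by membrane histidine kinases. The kinases pass a phosphate through shuttle proteins to type-B response regulators, which switch genes on. Type-A response regulators are among the genes switched on and damp the pathway, and ARR22 belongs to a further small class, type C, that can take phosphate from the shuttle proteins without acting on genes. Cytokinins are also known for their part in chloroplast development and in delaying leaf senescence. RR22, the array's entry for ARR22, had signals of 2792, 2752 and 3132 in ARR22-ox after t-zeatin and 2857, 3248 and 3661 without it, against at most 1.92 on the 6 Col-0 arrays.

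The third untreated ARR22-ox array stood apart from its own group. Its mean correlation with the others over the tested probe sets was 0.927, against 0.959 and 0.958 for the other two and 0.989 to 0.991 in the other groups. Its ratios of 3′ to 5′ probe signal, a sign of RNA integrity, were 1.82 for GAPDH and 3.47 for actin, against at most 1.08 and 1.38 elsewhere. Among the 80 genes it was the lowest of its group in 36, the middle in 3 and the highest in 41. Without it, 68 of the 80 still changed by -0.8 or less in ARR22-ox, and the median change was -1.15. The 12 that did not were AT5G25240, AT4G18740, AT3G56880, AT1G35430, AT2G20670, AT3G19550, AT3G44100, AT5G56100, AT1G61590, scpl46, AT4G00700 and AT1G21680, with changes of -0.80 (AT3G19550, just short of the rule) to -0.54 (AT1G35430). Its part in the results was not tested. For the related genes the setting without it was chosen after the array was seen to stand apart. As a check of the label of complete plants, the leaf gene RCA had group means of 2239 to 3026 and the root gene PYK10 of 1388 to 2131. Of the other listed leaf and root markers, the leaf gene PORB had 762 to 1441, while the root gene EXPA7 was dim, at 24.5 to 41.3.

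By choice, all 80 genes were lower after t-zeatin, and their changes are described without a test. In RNA of complete plants, fewer cells of a type and less RNA per cell cannot be told apart. The median log2 change was -1.09 in ARR22-ox (range -4.18 to -0.80) and -1.01 in Col-0 (range -3.53 to -0.81), while the medians over all genes above the floor were -0.03 and 0.01. At least a 2-fold fall in both genotypes was found in 29 genes. The 3 treated arrays lay below the 3 untreated arrays in 79 genes in ARR22-ox (28.5% of genes above the floor), in 79 in Col-0 (31.9%) and in 78 in both (10.7%). The rule used these arrays, so nothing is read from those counts. The median of the group means was 63.7 after t-zeatin and 152 without it in ARR22-ox, and 56.4 and 128 in Col-0.

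**Figure D1:**
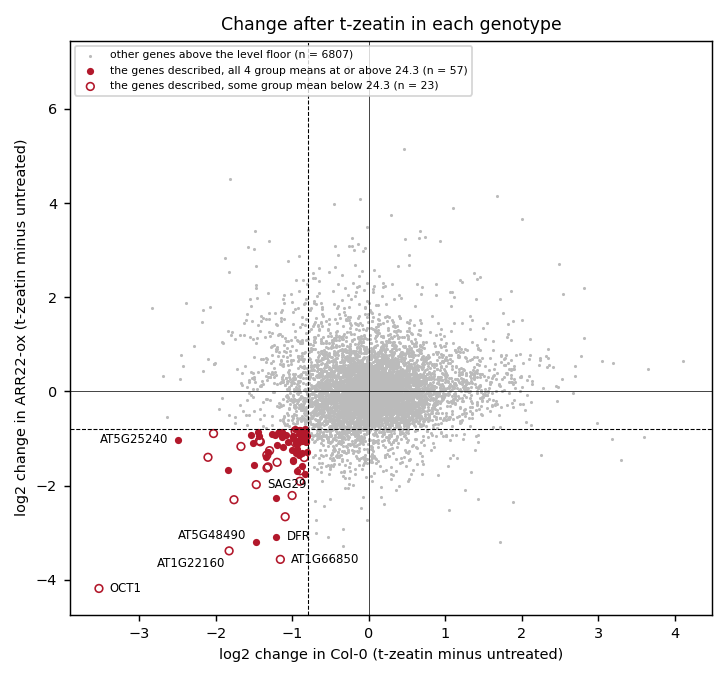
Log2 change after t-zeatin in Col-0 (horizontal axis) and ARR22-ox (vertical axis) for the 6887 genes above the level floor, with the 80 genes in red and the thresholds of -0.8 as dashed lines. The 80 genes fill the lower left corner, most of them close to the thresholds, and open circles mark the 23 genes with a group mean below a signal of 24.3.

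Some of these changes rest on dim signals. In 57 genes all 4 group means lay at or above a signal of 24.3, the lowest mean signal kept for testing, and in 23 some group mean lay below it. Detection calls were not used here, so whether a signal below that level differs from background is not known. Over the 57 brighter genes the median change was -1.04 in ARR22-ox and -0.97 in Col-0. When 16 was added to every signal before taking logs, which shrinks changes of dim genes, 40 genes met the rule, 39 of them among the 80.

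**Figure D2:**
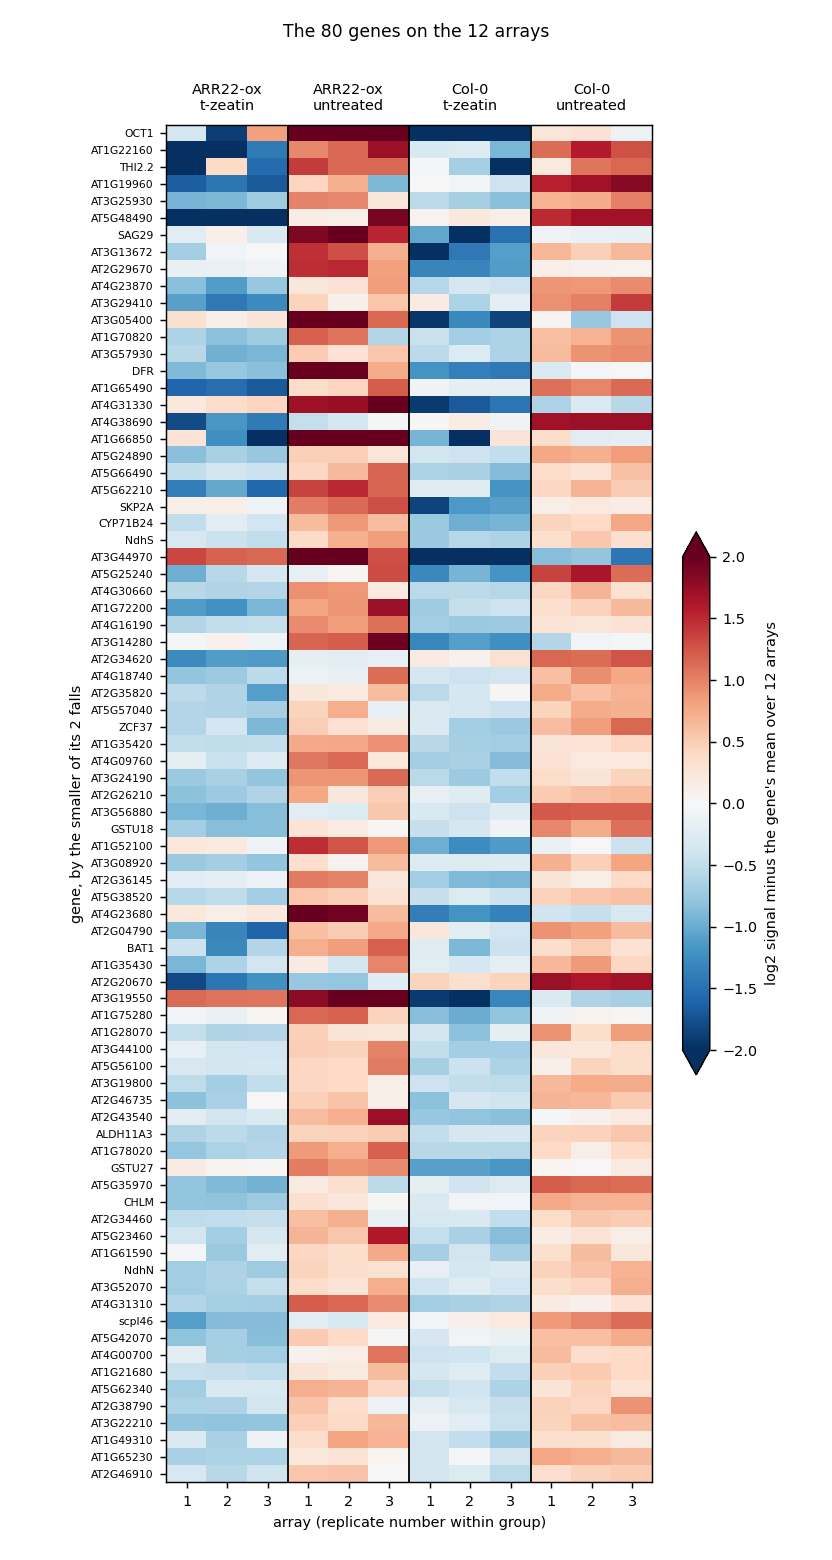
Log2 signal of the 80 genes (rows, ordered by the smaller of their 2 changes) on the 12 arrays (columns), minus each gene's mean over the arrays, with colours that stop at 2 in either direction. Within each genotype, values are higher (towards red) in the untreated columns and lower (towards blue) in the t-zeatin columns. Rows with a large genotype difference are coloured by genotype instead. AT2G20670 is blue in both ARR22-ox groups and red in both Col-0 groups, and AT4G31330 is the reverse. The third untreated ARR22-ox array is paler than its group in some rows and darker in others.

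Only 15 of the 80 genes have a main symbol other than the locus number in the gene annotation, and roles are given for these alone. The other 65 are known here by locus number. The genes are taken in the order of transport and defence, hormone and protein turnover, pigments, detoxification, and chloroplast and primary metabolism.

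OCT1, an organic cation/carnitine transporter, had the largest fall of all 80 in both genotypes. Its signals were 6.51, 2.25 and 14.6 in ARR22-ox after t-zeatin and 78.5, 76.3 and 215 without it. In Col-0 they were 0.875, 0.937 and 0.614 after t-zeatin and 9.86, 10.1 and 7.77 without it. The arrays did not overlap in either genotype, and only the untreated ARR22-ox arrays stood above 24.3. The log2 changes were -4.18 in ARR22-ox and -3.53 in Col-0, and with 16 added to the signals they were -2.44 and -0.59, so the Col-0 fall lies within signals of 10.1 or less.

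SAG29, also named SWEET15, belongs to the SWEET family of sugar transporters and is a marker of leaf senescence. Its signals were 34.0, 42.3 and 32.0 in ARR22-ox after t-zeatin, against 144, 173 and 113 in untreated ARR22-ox. In Col-0 it had 19.1, 8.43 and 14.0 after t-zeatin, against 37.7, 35.8 and 35.6 untreated. The arrays were apart in both genotypes, with log2 changes of -1.98 in ARR22-ox and -1.47 in Col-0, and the treated ARR22-ox arrays overlapped those of untreated Col-0.

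THI2.2 encodes a thionin, a small antimicrobial peptide. It had 4.51, 24.9 and 6.49 in ARR22-ox after t-zeatin, against 49.8, 41.9 and 41.7 untreated. In Col-0 it had 18.6, 11.9 and 4.16 after t-zeatin, against 21.6, 39.8 and 42.0 untreated. The log2 changes were -2.30 and -1.76, and the treated arrays spread widely at a level below or near 24.3. OCT1 and THI2.2, with AT4G23870 and AT1G66850, are the 4 of the 80 genes that fell below the filter on mean signal and were not tested for genotype.

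BAT1, an acyltransferase linked to brassinosteroids, averaged 21.1 ± 6.12 in ARR22-ox after t-zeatin, against 66.4 ± 11.5 untreated (SD, n = 3 each here and below). In Col-0 it averaged 24.7 ± 5.49 after t-zeatin, against 45.4 ± 3.52 untreated. Its log2 changes were -1.69 in ARR22-ox and -0.90 in Col-0. SKP2A, an F-box protein of the ubiquitin ligases that mark proteins for degradation, averaged 115 ± 8.66 in ARR22-ox after t-zeatin, against 245 ± 22.3 untreated. In Col-0 it averaged 44.0 ± 11.8 after t-zeatin, against 122 ± 3.35 untreated. SKP2A thus had the larger fall in Col-0, -1.51, than in ARR22-ox, -1.09, and the reverse held for BAT1.

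DFR, dihydroflavonol 4-reductase, makes the precursors of anthocyanin pigments. Its signals were 78.0, 84.7 and 80.5 in ARR22-ox after t-zeatin, against 1066, 1272 and 239 untreated. In Col-0 it had 62.8, 55.9 and 53.4 after t-zeatin, against 118, 139 and 144 untreated. The arrays were apart in both genotypes, but the third untreated ARR22-ox array lay far below the other two. The log2 change in ARR22-ox was -3.08 with that array and -3.85 without it, and in Col-0 it was -1.22.

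CYP71B24, a cytochrome P450, averaged 34.6 ± 3.28 in ARR22-ox after t-zeatin, against 72.7 ± 6.88 untreated, and 24.2 ± 2.19 in Col-0 after t-zeatin, against 64.9 ± 9.46 untreated. GSTU18 and GSTU27 are glutathione transferases of the plant tau class, which attach glutathione to reactive compounds. GSTU18 averaged 62.8 ± 4.31 in ARR22-ox after t-zeatin, against 120 ± 10.5 untreated, and 89.3 ± 12.9 in Col-0 after t-zeatin, against 208 ± 24.9 untreated. GSTU27 averaged 256 ± 12.4 in ARR22-ox after t-zeatin, against 465 ± 21.6 untreated, and 111 ± 3.42 in Col-0 after t-zeatin, against 253 ± 17.7 untreated. In each of these genes the fall was somewhat larger in Col-0 (log2 changes of -1.42, -1.22 and -1.18) than in ARR22-ox (-1.07, -0.93 and -0.86). Their levels were ordered oppositely, GSTU18 being lower and GSTU27 higher in ARR22-ox than in Col-0 with and without t-zeatin.

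NdhN and NdhS are nuclear-encoded subunits of the chloroplast NADH dehydrogenase-like complex, which carries electrons around photosystem I. NdhN had signals of 156, 166 and 155 in ARR22-ox after t-zeatin, against 344, 325 and 314 untreated, and 227, 198 and 208 in Col-0 after t-zeatin, against 348, 378 and 409 untreated. NdhS had 254, 236 and 225 in ARR22-ox after t-zeatin, against 420, 520 and 570 untreated, and 190, 214 and 208 in Col-0 after t-zeatin, against 403, 464 and 403 untreated. Both were near 2-fold lower after t-zeatin in each genotype, with log2 changes of -1.04 and -1.07 in ARR22-ox and -0.84 and -1.05 in Col-0.

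CHLM, the magnesium-protoporphyrin IX methyltransferase of chlorophyll synthesis, had 386, 381 and 408 in ARR22-ox after t-zeatin, against 833, 780 and 678 untreated, and 547, 643 and 641 in Col-0 after t-zeatin, against 1126, 1082 and 1086 untreated. ALDH11A3, a non-phosphorylating glyceraldehyde-3-phosphate dehydrogenase, had 312, 328 and 312 in ARR22-ox after t-zeatin, against 643, 650 and 672 untreated, and 336, 375 and 374 in Col-0 after t-zeatin, against 643, 651 and 689 untreated. These 2 genes had tight arrays and similar falls, of -0.96 and -1.05 in ARR22-ox and -0.85 and -0.87 in Col-0. The serine carboxypeptidase-like gene scpl46 averaged 27.6 ± 2.41 in ARR22-ox after t-zeatin, against 49.5 ± 9.90 untreated, and 56.3 ± 4.68 in Col-0 after t-zeatin, against 105 ± 9.96 untreated, and its change in ARR22-ox was -0.67 without the third untreated array. ZCF37, for which no role is given, averaged 26.6 ± 4.70 in ARR22-ox after t-zeatin, against 51.1 ± 5.58 untreated, and 27.7 ± 4.86 in Col-0 after t-zeatin, against 74.9 ± 14.2 untreated.

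**Figure D3:**
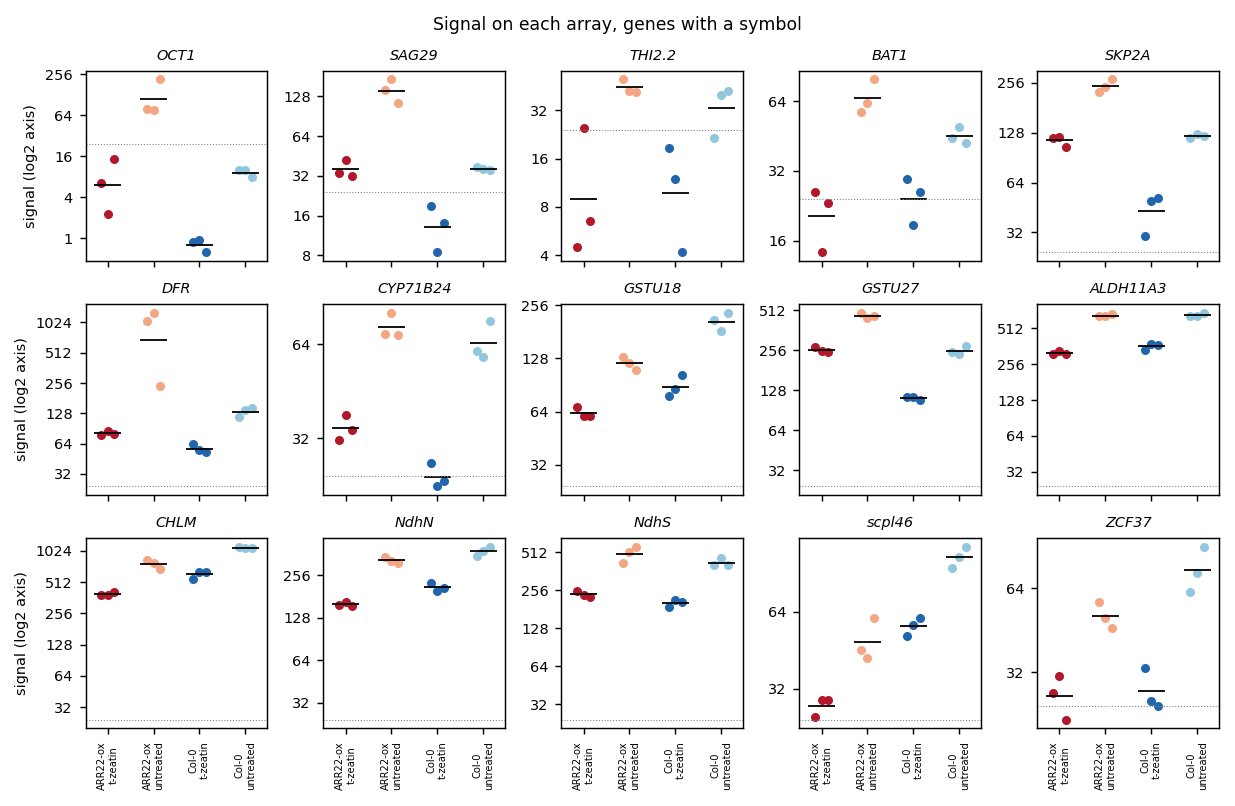
Signal on each array (vertical axis, log2 scale) for the 15 genes with a symbol, in 4 groups of 3 arrays, with the group mean of the log2 signals as a black line and a signal of 24.3 dotted. In every panel the t-zeatin points of a genotype lie below its untreated points, and OCT1 in Col-0 lies wholly below the dotted line.

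Among the genes known by locus number, the largest shared falls after OCT1 were in AT1G22160, AT1G19960, AT3G25930, AT5G48490, AT3G13672 (listed in the genome annotation also as SINA2), AT2G29670, AT4G23870, AT3G29410 and AT3G05400, with THI2.2 and SAG29 among them. AT1G19960 had 34.6, 39.5 and 33.8 in ARR22-ox after t-zeatin, against 146, 178 and 58.3 untreated, and 109, 104 and 81.3 in Col-0 after t-zeatin, against 319, 350 and 386 untreated. AT2G29670 had 296, 302 and 314 in ARR22-ox after t-zeatin, against 919, 932 and 583 untreated, and 132, 132 and 152 in Col-0 after t-zeatin, against 362, 349 and 347 untreated. AT3G25930 averaged 35.8 ± 2.89 in ARR22-ox after t-zeatin, against 109 ± 29.6 untreated, and 40.2 ± 4.13 in Col-0 after t-zeatin, against 114 ± 13.4 untreated. These 3 genes fell by similar amounts in the 2 genotypes, with log2 changes of -1.68, -1.38 and -1.57 in ARR22-ox and -1.85, -1.35 and -1.50 in Col-0, from levels that differed between genotypes in AT1G19960 and AT2G29670.

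AT1G22160 had 5.03, 7.88 and 13.0 in ARR22-ox after t-zeatin, against 67.2, 76.5 and 115 untreated, and 27.9, 28.5 and 18.3 in Col-0 after t-zeatin, against 75.0, 104 and 83.4 untreated. The treated arrays lay far below the untreated ones in both genotypes, with changes of -3.39 in ARR22-ox and -1.83 in Col-0. AT3G13672 had 16.5, 25.2 and 26.2 in ARR22-ox after t-zeatin, against 72.4, 64.2 and 42.9 untreated, and 6.62, 9.75 and 12.3 in Col-0 after t-zeatin, against 41.8, 36.5 and 41.3 untreated. Its fall was larger in Col-0 (-2.10) than in ARR22-ox (-1.40), from a lower level. AT3G05400 had 78.0, 67.6 and 74.6 in ARR22-ox after t-zeatin, against 279, 287 and 137 untreated, and 16.2, 25.4 and 17.3 in Col-0 after t-zeatin, against 64.5, 36.7 and 46.7 untreated. Every ARR22-ox array of this gene lay above every Col-0 array, treated or not. AT3G29410 averaged 13.2 ± 1.60 in ARR22-ox after t-zeatin, against 41.0 ± 6.56 untreated, and 27.7 ± 7.45 in Col-0 after t-zeatin, against 68.7 ± 12.5 untreated. AT4G23870 averaged 13.0 ± 1.64 in ARR22-ox after t-zeatin, against 33.6 ± 8.36 untreated, and 17.8 ± 1.37 in Col-0 after t-zeatin, against 44.9 ± 1.23 untreated. Both of these had treated means near or below 24.3 and arrays that were apart in each genotype.

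The brightest of the 80 was AT4G16190, with 976, 1043 and 1053 in ARR22-ox after t-zeatin, against 2812, 2613 and 3136 untreated, and 903, 873 and 882 in Col-0 after t-zeatin, against 1774, 1725 and 1787 untreated. CHLM, AT1G75280, AT3G22210, ALDH11A3 and AT1G78020 followed. AT1G75280 averaged 603 ± 33.4 in ARR22-ox after t-zeatin, against 1221 ± 320 untreated, and 341 ± 24.3 in Col-0 after t-zeatin, against 631 ± 30.7 untreated. AT3G22210 averaged 312 ± 2.07 in ARR22-ox after t-zeatin, against 770 ± 78.3 untreated, and 452 ± 52.6 in Col-0 after t-zeatin, against 790 ± 50.4 untreated. AT1G78020 averaged 248 ± 16.8 in ARR22-ox after t-zeatin, against 748 ± 129 untreated, and 265 ± 1.33 in Col-0 after t-zeatin, against 486 ± 49.8 untreated. In all 6 of the brightest genes the treated and untreated arrays were apart in both genotypes.

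The size of the fall often differed between the genotypes. It was larger in ARR22-ox for 51 genes and in Col-0 for 29, lay within 0.3 on the log2 scale in 44, and was more than 1 apart in 10, 8 of them larger in ARR22-ox. AT1G66850 and DFR showed the largest excess in ARR22-ox, followed by AT5G48490, AT5G62210 and AT1G22160, and AT5G25240 showed the largest excess in Col-0, followed by AT3G19550, AT3G13672, AT3G56880 and AT5G35970. These differences rest on the contrasts that chose the genes and are given with no test.

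AT5G48490 had 60.3, 60.5 and 56.2 in ARR22-ox after t-zeatin, against 364, 358 and 1226 untreated, and 344, 382 and 362 in Col-0 after t-zeatin, against 927, 1051 and 1048 untreated. The third untreated ARR22-ox array was here the highest, and the log2 change in ARR22-ox was -3.20 with it and -2.61 without it, against -1.48 in Col-0. AT5G62210 averaged 14.0 ± 2.74 in ARR22-ox after t-zeatin, against 87.7 ± 10.6 untreated, and 24.5 ± 8.10 in Col-0 after t-zeatin, against 50.2 ± 4.82 untreated. AT1G66850 had Col-0 signals of 4.67, 1.23 and 10.6 after t-zeatin, against 11.3, 7.65 and 7.82 untreated, so the Col-0 arrays overlapped at a very low level.

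AT5G25240 had 30.9, 41.2 and 47.3 in ARR22-ox after t-zeatin, against 54.4, 62.2 and 149 untreated, and 24.7, 31.9 and 26.9 in Col-0 after t-zeatin, against 155, 188 and 131 untreated. Its log2 change was -1.02 in ARR22-ox, or -0.57 without the third untreated array, and -2.50 in Col-0. AT3G56880 averaged 140 ± 6.13 in ARR22-ox after t-zeatin, against 277 ± 93.0 untreated, and 211 ± 11.3 in Col-0 after t-zeatin, against 612 ± 1.87 untreated. Its log2 change in ARR22-ox was -0.93, or -0.67 without the third untreated array. AT5G35970 averaged 48.2 ± 2.67 in ARR22-ox after t-zeatin, against 90.5 ± 26.4 untreated, and 72.2 ± 5.32 in Col-0 after t-zeatin, against 196 ± 6.58 untreated, with changes of -0.86 and -1.45. AT3G19550 had 59.4, 57.4 and 56.7 in ARR22-ox after t-zeatin, against 93.9, 107 and 123 untreated, and averaged 6.46 ± 4.91 in Col-0 after t-zeatin, against 18.9 ± 2.72 untreated. Its larger change in Col-0, -2.03 against -0.89 in ARR22-ox, lies within signals below 24.3. For AT5G25240, AT3G56880 and AT3G19550 the fall in ARR22-ox thus reached -0.8 only with that array, by the smallest amount in AT3G19550 (-0.796 without it).

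The genotype difference averaged over the 2 treatments does not enter the rule, and it was tested with limma over 13648 probe sets (two-sided, Benjamini-Hochberg adjusted p under 0.05). It is independent of both changes that chose the genes only where the arrays of a genotype spread alike with and without t-zeatin. Over the 80 genes the median coefficient of variation was 7.38% in ARR22-ox after t-zeatin and 19.6% untreated, or 4.87% untreated without the third array, and 8.75% and 8.16% in Col-0. Choice by a large fall in ARR22-ox can therefore have raised this difference, and the counts are given as a description, with and without that array. Of 76 genes tested, 70 reached the level floor in both genotypes, and 6 reached it in 1 genotype only. The floor favours a difference in those 6, which are given without a p. This division was made after the values were seen.

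Of the 70 genes, 23 were higher and 22 lower in ARR22-ox, and 25 did not pass. The calls made up 64.3%, against 49% of genes above the floor in both genotypes and 50.3% of all tested probe sets (23.1% higher and 27.2% lower). By direction the shares were 32.9% higher, against 21.9%, and 31.4% lower, against 27.1%. Without the third untreated ARR22-ox array 53 of the 70 were called, against 3843 of 5994 genes (64.1%) above the floor in both genotypes. Higher were 24 of the 70, against 1730 of 5994 (28.9%). Lower were 29 of the 70, against 2113 of 5994 (35.3%). The median difference of all 80 was -0.10, against -0.03 over the genes above the floor.

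Differences of at least 2-fold that passed were found in 8 of the 70 genes higher and 6 lower in ARR22-ox. The share of such differences over all genes above the floor was not counted, so nothing is read from these counts. AT4G31330 was higher by 2.17 ± 0.10 on the log2 scale (SE, limma adjusted p = 6.49e-09), AT3G05400 by 2.07 ± 0.20 (adjusted p = 2.86e-06) and AT4G23680 by 1.71 ± 0.19 (adjusted p = 9.27e-06), with all 6 ARR22-ox arrays above all 6 Col-0 arrays in each. The other 5, named here after their values were seen, were DFR, AT3G14280, SKP2A, AT2G29670 and GSTU27. GSTU27 was higher by 1.04 ± 0.06 (limma adjusted p = 2.00e-08), SKP2A by 1.21 ± 0.12 (adjusted p = 3.65e-06) and DFR by 1.44 ± 0.32 (adjusted p = 0.00226). In GSTU27 the treated ARR22-ox mean lay within 1 SD of the untreated Col-0 mean.

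The 6 genes that reached the floor in 1 genotype were AT3G44970, AT3G19550, SAG29, AT1G52100 and AT1G72200 in ARR22-ox, and AT2G35820 in Col-0. AT3G44970 had 119, 107 and 105 in ARR22-ox after t-zeatin, against 8.68, 7.84 and 9.33 in Col-0 after t-zeatin, and 323, 318 and 116 in untreated ARR22-ox, against 26.1, 27.4 and 17.4 in untreated Col-0. All 6 ARR22-ox arrays of this gene lay above all 6 Col-0 arrays. The log2 difference was 3.49 in AT3G44970, or 2.502 with 16 added to the signals, and 3.08 in AT3G19550, or 1.78 with 16 added. In SAG29 it was 1.70, or 1.20 with 16 added, and in AT1G52100 it was 1.31, or 0.83 with 16 added. AT1G72200 and AT2G35820 differed by 0.06 and -0.39.

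AT2G20670 was the most strongly lowered in ARR22-ox, with 77.1, 98.9 and 116 in ARR22-ox after t-zeatin, against 367, 335 and 367 in Col-0 after t-zeatin, and 159, 158 and 228 in untreated ARR22-ox, against 887, 827 and 867 in untreated Col-0. The log2 difference was -2.08 ± 0.11 (limma adjusted p = 1.68e-08), and all 6 arrays were apart. The change of AT2G20670 after t-zeatin in ARR22-ox was -0.72 without the third untreated array. AT2G34620 had the same pattern, with 41.1, 46.0 and 45.4 in ARR22-ox after t-zeatin, against 113, 105 and 122 in Col-0 after t-zeatin, and 87.3, 86.3 and 88.9 in untreated ARR22-ox, against 220, 215 and 238 in untreated Col-0. Its log2 difference was -1.36 ± 0.06 (limma adjusted p = 6.44e-09), and its changes after t-zeatin were -0.99 in both genotypes. Among the other 4 genes at least 2-fold lower, AT4G38690 had 15.8, 24.3 and 20.5 in ARR22-ox after t-zeatin, against 55.4, 60.1 and 51.6 in Col-0 after t-zeatin, and 39.3, 42.6 and 53.5 in untreated ARR22-ox, against 174, 179 and 179 in untreated Col-0. AT5G48490, AT4G38690, AT1G19960 and scpl46 had log2 differences of -1.75 ± 0.24, -1.73 ± 0.11, -1.53 ± 0.22 and -1.06 ± 0.10. CHLM (-0.58 ± 0.06, limma adjusted p = 7.87e-06), GSTU18 (-0.64 ± 0.09, adjusted p = 6.73e-05) and NdhN (-0.30 ± 0.06, adjusted p = 0.00114) were lower in ARR22-ox, while NdhS was higher (0.23 ± 0.08, adjusted p = 0.0273).

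All 6 ARR22-ox arrays lay above all 6 Col-0 arrays in 3 of the 70 genes, against 372 of 5994 genes (6.21%) above the floor in both genotypes. They lay below in 2 of the 70, against 334 of 5994 (5.57%). Within both treatments separately the ARR22-ox arrays lay above in 14 of the 70, against 585 of 5994 (9.76%). Below were 14 of the 70, against 615 of 5994 (10.3%). Of the 45 calls, 40 (18 higher and 22 lower) were made in the same direction when each array was left out in turn. The matching share over all called genes was not counted, so nothing is read from this count.

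**Figure D4:**
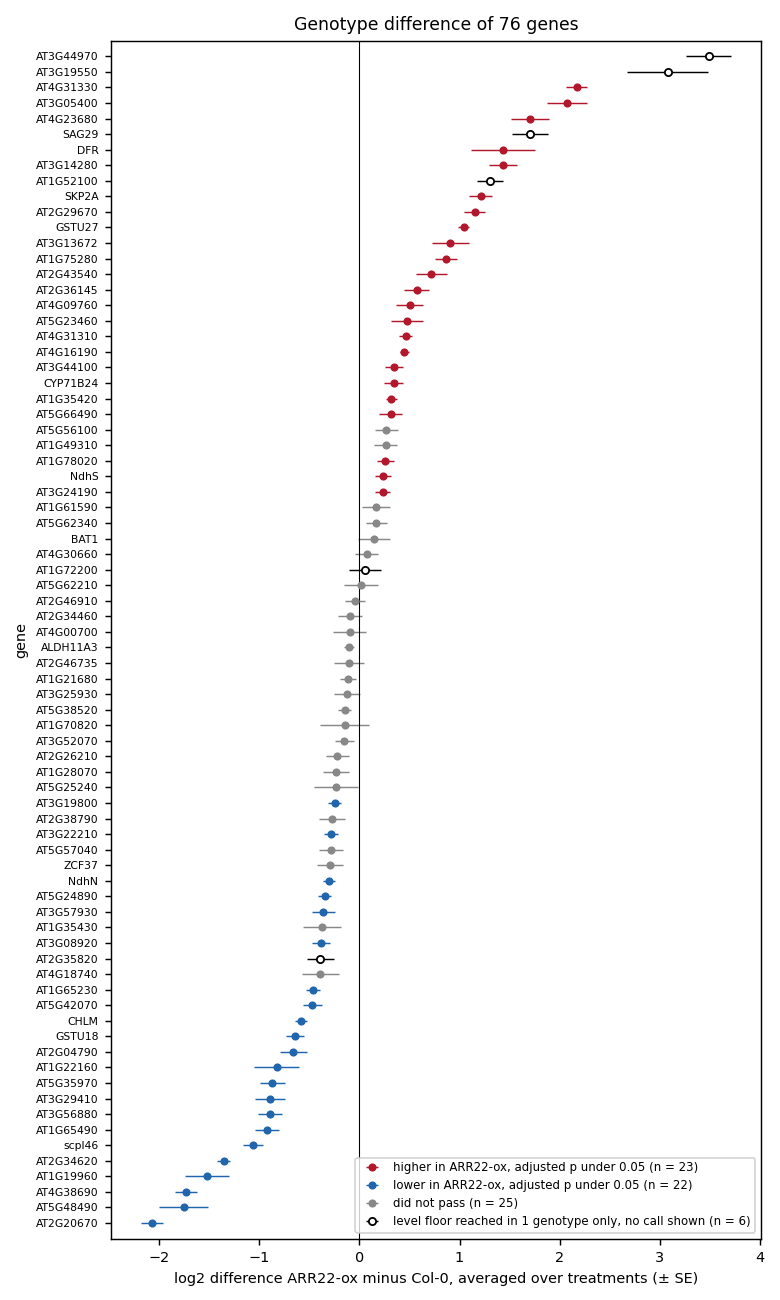
Log2 difference of ARR22-ox minus Col-0 averaged over treatments, with its standard error (horizontal axis), for the 76 tested genes (rows). The 23 genes higher in ARR22-ox reach 2.17, the 22 lower reach -2.08 at the bottom, 25 grey genes between did not pass, and open circles mark the 6 genes that reached the level floor in 1 genotype only, up to 3.49.

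The relatives of the named genes were examined next. Their families were drawn up by symbol after the genes were known, and for the genes outside the 80 the calls are limma's, against a background of 25.1% of tested probe sets lower and 25.2% higher in ARR22-ox, and 21.1% lower and 23.7% higher in Col-0. Beside GSTU18 and GSTU27, 5 more tau glutathione transferases were tested. GSTU16, GSTU20 and GSTU22 were lower after t-zeatin in both genotypes, GSTU26 was higher in both, and GSTU25 did not pass in either. GSTU20 changed by -0.79 ± 0.08 in ARR22-ox (adjusted p = 6.3e-06) and -0.88 ± 0.08 in Col-0 (adjusted p = 3.1e-06) and so fell just short of the rule in ARR22-ox. GSTU26 stood at 124 ± 10.1 in ARR22-ox after t-zeatin, against 87.6 ± 29.1 untreated, and at 342 ± 15.5 in Col-0 after t-zeatin, against 67.1 ± 1.97 untreated. Without the third untreated ARR22-ox array, GSTU25 was also called lower in ARR22-ox (-0.42, adjusted p = 0.025).

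The NADH dehydrogenase-like complex also has subunits encoded in the plastid genome. NdhL, the only further nuclear subunit found by symbol, changed by -0.50 ± 0.22 in ARR22-ox (limma adjusted p = 0.08) and -0.96 ± 0.22 in Col-0 (adjusted p = 0.004). Without the third untreated ARR22-ox array its change in ARR22-ox was -0.86 (adjusted p = 7.5e-08). Of 9 plastid-encoded subunits tested, in Col-0 0 passed in limma and 0 had an unadjusted p under 0.05, with changes between -0.12 and 0.49. The standard error reached 0.61 in ndhG, so not passing does not show that their levels were unchanged. In ARR22-ox, ndhH (2.29 ± 0.55, adjusted p = 0.0041) and ndhK (1.45 ± 0.27, adjusted p = 0.00071) were higher and 7 did not pass. Without that array both stayed higher (1.35 and 1.04, adjusted p = 2.07e-08 and 1.59e-06), ndhA and ndhC were also called higher, and ndhE and ndhG lower.

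Of 6 further enzymes of tetrapyrrole synthesis, the route to chlorophyll and haem, HEME1 and PORB were lower and HEMB1 was higher in both genotypes. PORB, which reduces protochlorophyllide, changed by -0.42 ± 0.09 in ARR22-ox (limma adjusted p = 0.0014) and -0.50 ± 0.09 in Col-0 (adjusted p = 0.00049). CHLI2, a magnesium chelatase subunit, was lower in ARR22-ox (-1.27 ± 0.24, adjusted p = 0.00077) and did not pass in Col-0 (-0.20 ± 0.24, adjusted p = 0.52), a difference that was not tested here. HEMA2 was lower in Col-0 (-0.55 ± 0.17, adjusted p = 0.021) and did not pass in ARR22-ox. HEME2 did not pass in either genotype. Without the third untreated ARR22-ox array HEME2 was called lower in ARR22-ox (-0.41, limma adjusted p = 9.6e-05). Of 25 nuclear photosynthesis genes listed, only 5 had a 1-gene probe set, namely LHCB4.1, LHCB4.2, LHCB4.3, PORB (counted above as well) and RCA. These 5 were lower in both genotypes, with medians of -0.30 in ARR22-ox and -0.46 in Col-0. The share of all probe sets called lower in both genotypes was not counted, so nothing is read from this for the rest of the list. LHCB4.3, a minor light-harvesting protein, averaged 263 ± 12.7 in ARR22-ox after t-zeatin, against 395 ± 68.9 untreated, and 210 ± 5.47 in Col-0 after t-zeatin, against 418 ± 5.58 untreated.

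Of the 4 flavonoid genes tested beside DFR, 4 were lower in ARR22-ox, and in Col-0 2 were higher and 2 did not pass. UF3GT and AT4G14090 changed by -2.93 ± 0.34 and -3.28 ± 0.31 in ARR22-ox (limma adjusted p = 1.8e-05 and 3.9e-06), while in Col-0 both changed by -0.33 and did not pass. Their untreated means were only 36.4 and 33.8 in Col-0, not far above 24.3, against 353 and 409 in ARR22-ox. Whether that low level bore on the size of the change in Col-0 was not tested, and neither was the difference between the genotypes. The flavonoid glucosyltransferases UGT78D1 and UGT78D2 were lower in ARR22-ox and higher in Col-0. Of 306 genes in the lists of known functions, 66 had a 1-gene probe set above the floor, and DFR alone met the rule, against 1.16% of all genes above the floor. So few genes cannot show whether a list lacks such members.

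Other relatives moved in mixed ways. SWEET13 was lower in both genotypes like SAG29, at -2.32 ± 0.17 in ARR22-ox (limma adjusted p = 5.2e-07) and -0.71 ± 0.17 in Col-0 (adjusted p = 0.0053). Of 7 further SWEET genes, SWEET13 included, 2 were higher and 2 lower in ARR22-ox, or 3 higher and 3 lower without the third untreated array. In Col-0, 4 of them were higher and 1 lower. Of the relatives of OCT1, OCT4 was higher in ARR22-ox (0.67 ± 0.13, adjusted p = 0.00125) and did not pass in Col-0, and OCT5 was higher in Col-0 (by 1.103 ± 0.136, adjusted p = 3.76e-05) and did not pass in ARR22-ox. Of 12 further serine carboxypeptidase-like genes, 9 were lower and 1 higher in ARR22-ox, and 2 were lower and 2 higher in Col-0. Of 7 further aldehyde dehydrogenases, 2 were lower and 1 higher in ARR22-ox, and 1 was lower and 2 higher in Col-0. Of 8 further CYP71B genes, 2 were lower and 1 higher in ARR22-ox, or 4 lower and 2 higher without the third untreated array, and 3 were lower and 0 higher in Col-0. The thionin THI2.1 was lower in ARR22-ox (-1.74 ± 0.35, adjusted p = 0.0013) and did not pass in Col-0. Its change in ARR22-ox was -1.175 without the third untreated array.

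**Figure D5:**
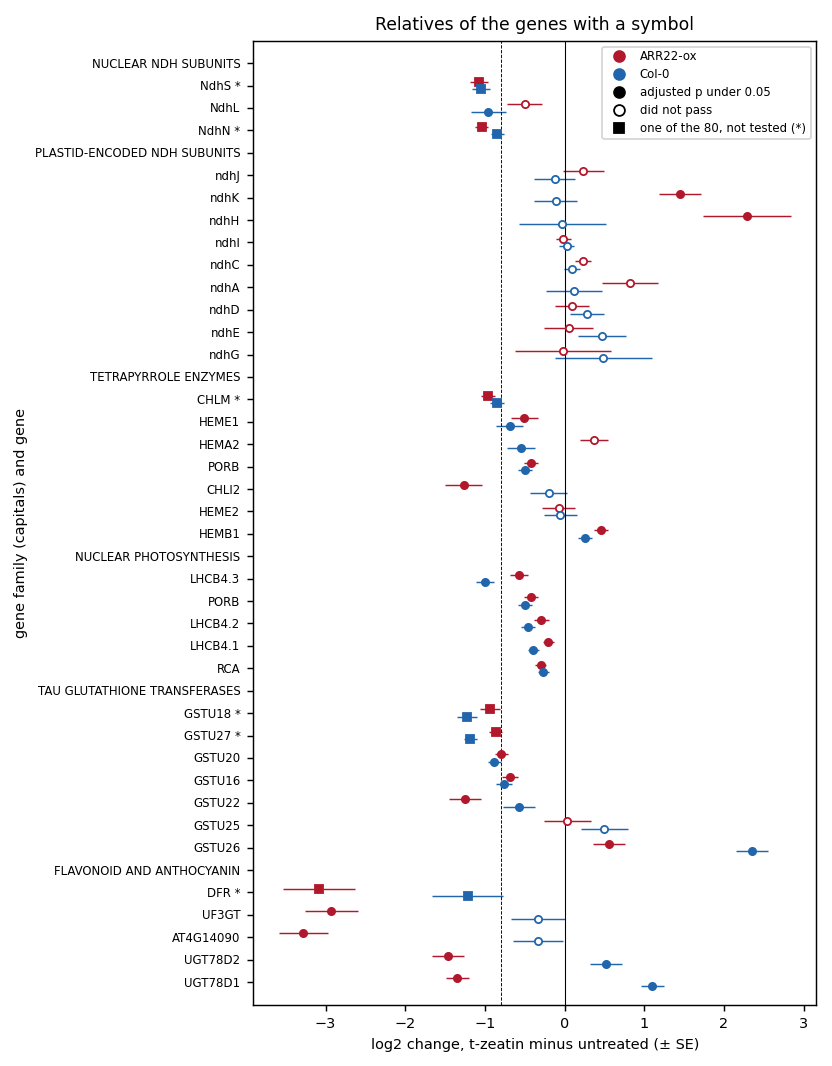
Log2 change after t-zeatin with its standard error (horizontal axis) for the relatives of the named genes (rows, by family), in ARR22-ox (red) and Col-0 (blue), with squares for those of the 80 and filled circles for adjusted p under 0.05. The nuclear NdhN, NdhS and NdhL lie left of 0, while most plastid-encoded subunits lie near 0 and ndhH and ndhK lie to the right in ARR22-ox, and all 5 flavonoid genes lie left of -1 in ARR22-ox.

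Position and length were taken from the TAIR10.1 annotation and are given with no test. The median gene length of the 80 was 1465 bp, against 2282 bp for the 6864 genes above the floor with a length. They lay on all 5 chromosomes in shares close to the background, from 16.2% on chromosome 4 (14.7% of genes above the floor) to 25% on chromosome 1 (25.7%). There were 3 pairs within 5 genes of each other. AT1G35420 and AT1G35430 are adjacent, with changes of -1.31 and -0.90 (-0.54 without the third untreated array) in ARR22-ox and -0.95 and -0.91 in Col-0, AT4G31310 and AT4G31330 are 2 genes apart, and AT4G23870 and AT4G23890, which is NdhS, are 4 apart. No gene had a further 1-gene probe set, so each rests on 1 probe set.

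The threshold separates genes with nearly equal values. Just inside were AT1G49310 (changes of -0.96 in ARR22-ox and -0.81 in Col-0), AT1G65230 (-0.80 and -0.97) and AT2G46910 (-0.80 and -0.83). Just outside were AT2G31730 (-1.21 in ARR22-ox and -0.80 in Col-0), GSTU20 and AT5G15780 (-0.79 and -0.89).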

How the data were processed

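The deposited values were array intensity per probe set, the MAS5 signal per the submitters' processing notes, on a linear scale. The authors scaled each array: its mean signal, with the lowest and highest 2% trimmed, was 100.0 on all 12. The software version is not given in the sources used here. With 3 arrays in a group, precision is limited by that number.

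The log2 of each signal was used. limma 3.58.1 in R 4.3.3 was fitted to all 12 arrays with 4 group means and a variance trend, on 13648 probe sets at or above the 40th percentile of mean signal, with Benjamini-Hochberg adjustment. The model was tested on simulated data with noise of the same spread in all 4 groups. That test therefore does not cover the wider spread of the untreated ARR22-ox arrays. Symbols, lengths and neighbours came from the TAIR10.1 table, which held the genes of 13436 of the 13513 probe sets. The platform annotation gave the remaining symbols. Each probe set paired with 1 gene was counted as a gene, so a gene with several such probe sets is counted for each. Replicate numbers follow sample order and pair nothing.

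The genes and lists were chosen with earlier results of these data known. Named by rule were the 12 largest shared falls, the 6 brightest genes, up to 5 higher and 5 lower in ARR22-ox with all 6 arrays apart, list members, 5 with the largest differences of fall each way, and 3 on either side of the threshold. Other settings tried were an offset of 16, quantile and median scaling, other filters, no variance trend, other thresholds and leaving out each array.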

Additional observations from a re-analysis of the deposited data

How the results depend on the processing

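The number of genes chosen depended most on the threshold and on how dim signals were treated. It was 40 with an offset of 16 added to the signals for both the level floor and the changes, 29 with a threshold of -1 and 179 with a threshold of -0.6, against 80. Leaving out each array in turn gave 73 to 84, and 46 of the 80 were chosen every time. With the offset, 50 of the 80 changed by -0.8 or less in Col-0. Leaving out arrays gave 70 to 80 in Col-0 and 68 to 80 in ARR22-ox, 48 to 55 genes with the larger fall in ARR22-ox, and 47 to 57 genes called for genotype, against 50 with all arrays. The filter on mean signal was set anew in each fit. Without the third untreated ARR22-ox array, AT1G72200 and AT3G19550 were not tested. With all arrays the calls were 65.8% of the 76 genes, against 50.3% of all tested probe sets. The 76 include the 6 genes that reached the level floor in 1 genotype only, where the floor favours a difference. The stricter filter, which also tests fewer probe sets, left 36 calls. Keeping only genes that reached the level floor in both genotypes, a choice made after seeing the data, left 45 of 70. That was 64.3%, against 49% of all such genes. Shares over all probe sets are not given here for the other settings, so nothing is read from those counts. Leaving out each array moved the AT5G62210 genotype difference, which did not pass, between -0.139 and 0.098, and it was negative without ARR22-ox t-zeatin replicate 2, ARR22-ox untreated replicate 2, Col-0 t-zeatin replicate 3 or Col-0 untreated replicate 1. The AT2G46910 genotype difference, which also did not pass, lay between -0.0888 and 0.052, and was positive without ARR22-ox untreated replicate 3. The cause was not tested. No paired analysis was possible because the labels give no replicate number or other pairing that the groups share.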
